A study of Mus musculus with 2 samples.

Results

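The genes described here are 10 markers of macrophages and other myeloid cells: C1qa, Fcer1g, Trem2, Msr1, Fcgr3, Pld4, Laptm5, Spi1, Lcp1 and Arhgdib. They were chosen by name, with earlier results of the same 2 samples known, and found as the probes whose gene symbol in the platform's annotation is one of these names. All 10 were measured, of 11484 named genes in all, and each was read by 1 probe. The samples were mouse cells of embryonic origin with the strain label C57/ICR: parental cells at passage 1, grown in a medium with fetal bovine serum (FBS), and stem cells generated with a small molecule, at passage 5, kept in medium for embryonic stem (ES) cells. The sources used here give neither the small molecule nor its dose. In the design text the name PEG cells stands beside parental cells, and it was taken to mean the small-molecule stem cells. Total RNA was measured on a 1-colour oligonucleotide array, for which the design text names 3 replicates of each sample, but 1 column of normalised intensities per sample was analysed. Therefore no difference has a replicate check and none was tested. Passage, medium and treatment differed together and cannot be told apart.

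Macrophages arise early in the embryo and settle in nearly every tissue. They take up debris, lipoproteins and antibody-coated particles through scavenger and Fc receptors, digest them in lysosomes, and secrete the recognition protein of the classical complement pathway. Many of these receptors have no signalling tail of their own and use adaptor chains that carry an immunoreceptor tyrosine-based activation motif (ITAM). The transcription factor PU.1, product of Spi1, directs much of this program.

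In the small-molecule stem cells 7 of the 10 genes were lower by 2-fold or more than in the parental cells, 1 was higher, and 2 differed by less than 2-fold. The 7 lower genes included all 5 that encode surface or secreted proteins of phagocytes (C1qa, Fcer1g, Trem2, Msr1 and Fcgr3), together with Pld4 and Arhgdib. Laptm5 was the higher gene, while Lcp1 and Spi1 lay within 2-fold. Among the 9766 genes that exceeded the floor in 1 sample or both, 22.6% were lower by 2-fold or more and 22.1% were higher. The floor is the 25th percentile of a column, an intensity of 93.8 in the parental sample and 93.4 in the stem sample, under which a value gives only a bound. The genes were picked with this contrast in view, so their count describes them and supports nothing further. In these bulk samples fewer cells of a type and less RNA per cell cannot be told apart.

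Promoter sequences are shown because the transcription factor PU.1, encoded by one of the 10 genes, is known to bind purine-rich sites with the core GAGGAA near the start sites of myeloid genes. RefSeq promoter windows (GRCm38.p6) run from 250 bases before a transcription start to 50 after it, and 7 of the 10 genes matched, with 11 windows: Fcer1g, Trem2, Fcgr3, Pld4, Laptm5, Lcp1 and Arhgdib. The other genes are C1qa, Msr1 and Spi1. The 150 bases before the start are printed 5′ to 3′ on the gene's own strand for Trem2 (chr17:48346251-48346400, plus strand), for the first of 2 Fcgr3 starts (chr1:171059404-171059553, minus strand) and for Laptm5 (chr4:130913166-130913315, plus strand). Of Pld4 a 30-base stretch around the match is printed (chr12:112760653-112760682, plus strand). Capitals mark GAGGAA, which reads TTCCTC where it lies on the opposite strand, and in Pld4 the longer GAGGAAGT that contains it.
Trem2: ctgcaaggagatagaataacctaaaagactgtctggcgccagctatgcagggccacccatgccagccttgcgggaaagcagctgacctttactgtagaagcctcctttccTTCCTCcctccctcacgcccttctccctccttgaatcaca
Fcgr3: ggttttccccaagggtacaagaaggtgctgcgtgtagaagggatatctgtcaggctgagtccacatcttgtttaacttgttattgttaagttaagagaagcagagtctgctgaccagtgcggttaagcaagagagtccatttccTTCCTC
Laptm5: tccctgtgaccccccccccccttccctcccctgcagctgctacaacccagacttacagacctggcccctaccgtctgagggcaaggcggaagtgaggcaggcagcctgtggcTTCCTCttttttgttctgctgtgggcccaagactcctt
Pld4: ctcagaacaaaGAGGAAGTgaatggaaggg

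C1qa encodes a chain of C1q, the complement protein that binds antibody complexes and dying cells and is made largely by macrophages. Its intensity was 3198 in the parental sample and 35.7 in the stem sample. The second value lay under the floor, so C1qa was at least 34.2-fold lower, the largest of the 10 folds and bounds. Its partner chain C1qc, which is not one of the 10, read 457 and 66.6, at least 4.89-fold lower. Both measured C1q chains were thus above the floor in the parental cells alone. C1qb was not analysed here.

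Fcer1g encodes the common gamma chain, the ITAM adaptor through which Fc receptors signal. It read 1894 in the parental sample and 206 in the stem sample, 9.17-fold lower and still above the floor. Fcgr3, the low-affinity receptor for immunoglobulin G that pairs with this chain, read 505 and 75.8. It was at least 5.41-fold lower and lay just under the floor in the small-molecule stem cells. Trem2, a lipid-sensing receptor of macrophages and microglia, read 373 and 26.1, at least 3.99-fold lower. The receptor and the adaptor of the Fc pair were lower in the same sample, but only the adaptor stayed measurable there. Tyrobp, the adaptor of Trem2, and Syk, the kinase that docks on ITAMs, were not analysed here.

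Msr1, the class A scavenger receptor that takes up modified lipoproteins, read 884 in the parental sample and 111 in the stem sample. The difference was 7.98-fold, and the second value lay just above the floor. Msr1 and Fcgr3 are therefore the members nearest the floor on either side. The bounds for Fcgr3, Pld4, Trem2 and C1qa depend on where that floor is set. With the floor at the median of a column (304 and 305) the stem values of Msr1 and Fcer1g would give bounds too, and Arhgdib alone of the 7 lower genes would keep a measured fold.

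The lysosomal genes went opposite ways. Pld4, an exonuclease of endolysosomes that degrades single-stranded nucleic acids, read 402 in the parental sample and 42.7 in the stem sample, at least 4.30-fold lower. Laptm5, a lysosomal membrane protein gene of blood cells that lowers antigen receptor levels in lymphocytes, read 1287 and 12204, 9.48-fold higher. It was bright in both samples and far from the floor. Both genes carried the GAGGAA core in the windows printed above, upstream of the start in Laptm5 and downstream of it in Pld4.

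Arhgdib, also called Ly-GDI, is a regulator of the actin cytoskeleton that is most abundant in blood cells. It read 10011 in the parental sample and 575 in the stem sample, 17.4-fold lower, with both values well above the floor. Lcp1, or L-plastin, bundles actin filaments in leukocytes, and it read 744 and 1401, 1.88-fold higher. Spi1 read 224 and 268, 1.19-fold higher. Of the 2 cytoskeletal regulators, Arhgdib was far lower and Lcp1 differed by less than 2-fold, and the transcription factor gene was at nearly the same low intensity in both samples. The plot of all 10 genes by sample shows these values.

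**Figure D1:**
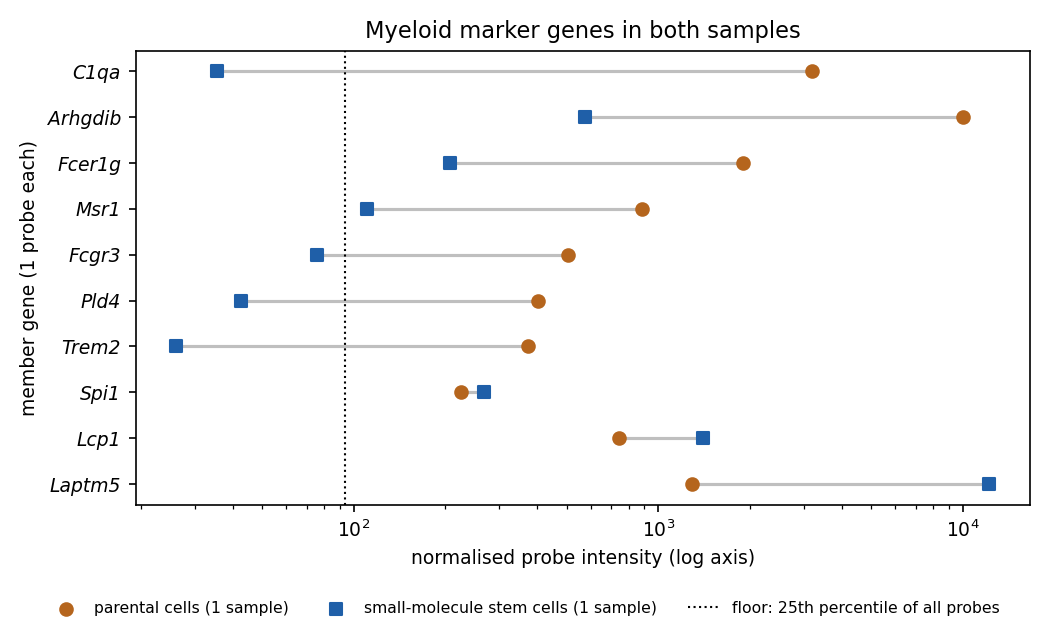
Normalised probe intensity (log axis) of the 10 genes in the parental cells (circles) and the small-molecule stem cells (squares), 1 sample each, ordered by the difference with dim values raised to the floor; the dotted line is the parental floor of 93.8, close to the 93.4 of the other sample. From C1qa to Trem2 the circle lies right of the square, with 4 squares left of the line, Spi1 has both symbols close together, and Laptm5 lies furthest the other way, from 1287 to 12204.

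Probe error sets how these differences may be read. Another 612 genes had 2 probes that exceeded the floor, and there the log2 difference (small-molecule stem minus parental) of a single probe varied around its gene with an SD of 1.05, or 2.07-fold. The SD was 1.15 in the dimmer 306 of these genes and 0.95 in the brighter 306. This error covers probes on the same 2 samples and no spread between cultures. With bounds in place of dim values, 6 of the 7 lower genes and Laptm5 lay beyond 2 SD, a log2 size of 2.10 or 4.30-fold. Pld4 was at that line, at -2.11, and Trem2 just inside it, at -2.00. The differences of Lcp1 (0.91) and Spi1 (0.25) were smaller than 1 SD.

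The order of the 10 genes by log2 difference is loose. A difference between 2 probes carries an SD of 1.49, and none of the 9 gaps between neighbours reached 2 such SDs. The 7 lower genes ran from -5.10 for C1qa through -4.12 for Arhgdib, -3.20 for Fcer1g, -3.00 for Msr1 and -2.43 for Fcgr3 to Pld4 and Trem2. They were followed by Spi1 (0.25), Lcp1 (0.91) and Laptm5 (3.24). The values of C1qa, Fcgr3, Pld4 and Trem2 are bounds, so their places in this order are not fixed. The median over the 10 genes was -3.10 from the values as measured and -2.27 with bounds, beside 0.12 and 0.10 over all 9766 genes.

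The genes measured in both samples may be placed among all 9766 genes above the floor, with dim values of the latter raised to it. There 161 genes (1.65%) were as low as Arhgdib or lower, and 327 (3.35%) as low as Fcer1g. On the other side 175 genes (1.79%) were as high as Laptm5 or higher. At 4-fold, 7 of the 10 genes were lower and 1 was higher by the values as measured, where 10.3% and 7.52% of all genes were. That size, 4-fold, is close to 2 SD of the probe error.

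**Figure D2:**
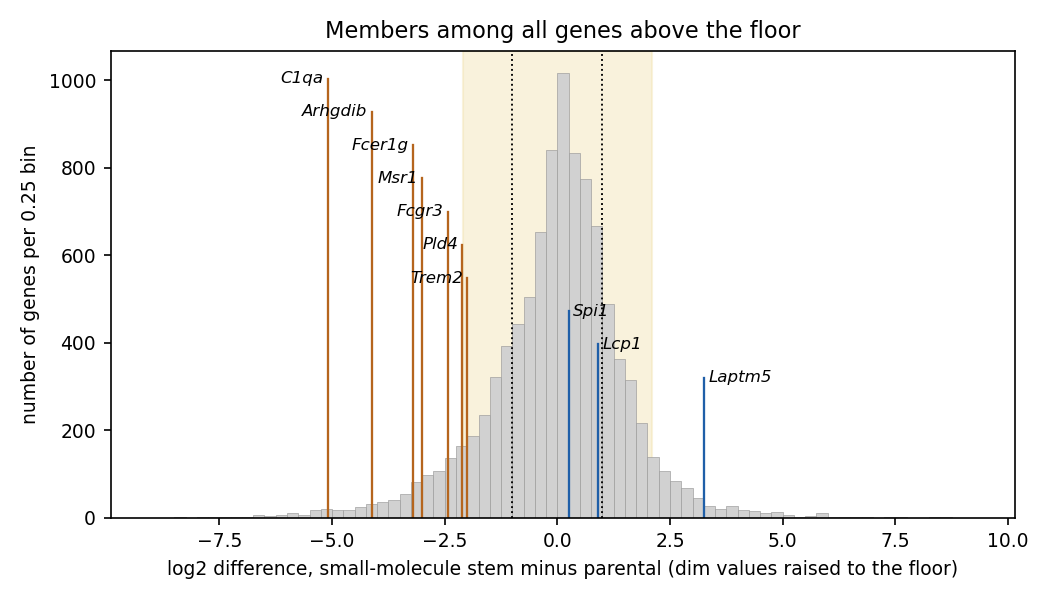
Distribution of the log2 difference (small-molecule stem minus parental, dim values raised to the floor) over the 9766 genes above the floor, in bins of 0.25, with vertical lines for the 10 genes whose heights only separate the names. Dotted lines mark 2-fold and the shaded band 2 SD of the probe error (2.10); C1qa at -5.10 and Arhgdib at -4.12 lie in the left tail, Trem2 at -2.00 on the edge of the band, and Laptm5 at 3.24 in the right tail.

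Other genes of macrophages were lower in part. A macrophage identity list had 18 measured genes, 5 of which are among the 10, chosen with this contrast known. Of the other 13, 7 were lower by 2-fold or more, or 6 with bounds, 3 were within 2-fold, 3 lay under the floor in both samples and none was higher. Over the members of these 13 that exceeded the floor, the median log2 difference was -1.91, or -1.29 with bounds. Slc40a1, the iron exporter ferroportin, read 3431 in the parental sample and 161 in the stem sample, 21.3-fold lower. The mannose receptor gene Mrc1 read 356 and 42.0, at least 3.80-fold lower, Aif1, a calcium-binding protein gene of macrophages and microglia, 238 and 46.1, at least 2.55-fold lower, and Cd68, a lysosomal glycoprotein gene, 728 and 310, 2.35-fold lower. These 3 genes were picked after their values were seen, and Hpgd (468 and 62.3, at least 5.01-fold lower) had a larger difference. The 3 genes within 2-fold as measured were Siglec1 at 193 and 231, the folate receptor gene Folr2 at 108 and 143, and Itgam. The integrin gene Itgam read 134 and 75.8, the second value under the floor. It was at least 1.43-fold lower, so its place within 2-fold is not fixed. Ptprc, the pan-leukocyte gene that encodes CD45, read 165 and 118. The 13 genes outside the 10 summed to an intensity of 6448 in the parental sample and 1355 in the stem sample, and 3 of them lay under the floor in the first and 9 in the second.

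Genes of the phagocytic and lysosomal machinery were lower in large part, though many of them are also used by other cells. Of 25 measured lysosome genes above the floor 14 were lower, Pld4 included, and only Laptm5 was higher, with a median of -1.23. Without Pld4 and Laptm5, 13 of 23 were lower, with a median of -1.23. The proteases Ctsh (4025 and 75.8, at least 43.1-fold) and Ctsk (1084 and 55.2, at least 11.6-fold) and the glycoprotein gene Gpnmb (2839 and 48.9, at least 30.4-fold) had the largest differences among the lower ones. Of 15 scavenger and efferocytosis receptor genes 8 were lower, Msr1 included, and none was higher (median -1.23). Without Msr1, 7 of 14 were lower (median -1.09). The kinase receptor gene Axl (10843 and 108), the collagen receptor gene Mrc2 (10979 and 268) and Lrp1 (6270.3 and 252) led them, and all are also expressed by fibroblasts. Of 7 NADPH oxidase genes 6 were lower, or 5 with bounds, and 1 was higher, or 0 with bounds. Rac2, a small GTPase gene of blood cells, read 365 and 114, 3.22-fold lower, and its broadly expressed relative Rac1 18854 and 4484, 4.21-fold lower.

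The pan-leukocyte and signalling lists held both lower and higher genes. Both directions were also frequent among all 9766 genes above the floor, with 22.6% lower and 22.1% higher by 2-fold or more. Of 27 pan-leukocyte genes (3 of them among the 10) 8 were lower, or 6 with bounds, 5 were higher, and 14 were within 2-fold, with a median of -0.24. Lsp1, an actin-binding protein gene of leukocytes, stood beside Arhgdib at 9346 and 393, 23.8-fold lower. Myo1f, an unconventional myosin gene (135 and 908, 6.73-fold), and the GTPase-activating protein gene Arhgap9 (104 and 452, 4.35-fold) stood beside Laptm5 on the higher side. Of 13 immunoreceptor signalling genes 5 were higher and 4 lower, or 1 lower with bounds, with a median of 0.24. The phospholipase gene Plcg2, which acts downstream of ITAM receptors, read 447 in the parental sample and 6571 in the stem sample, 14.7-fold higher. The lipid phosphatase gene Inpp5d (152 and 1140) and the adaptor gene Dok2 (263 and 1488) were 7.49-fold and 5.66-fold higher, whereas Dok1 (2633 and 244) was 10.8-fold lower. Btk, Pik3ap1 and Vav3 were the other lower genes of this list, each by a bound of less than 2-fold. With bounds, this list thus had 5 higher genes and 1 lower gene, Dok1. Fcer1g, Fcgr3 and Trem2 were chosen with this contrast known, so their direction cannot be set against that of the list.

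Spi1 may be set beside the other transcription factor genes of blood cells. Of 16 such genes above the floor, Spi1 left out, 7 were lower and none was higher, with a median of -0.81, or -0.72 with bounds. Egr1, an immediate early gene of many cell types (17504 and 194), Runx1 (814 and 108) and Id2 (1139 and 236) were 90.4-fold, 7.55-fold and 4.82-fold lower. Irf8, a partner of PU.1 in macrophages, read 109 and 63.1. Gfi1, Ikzf1, Tal1 and Gata1 lay under the floor in both samples. Of 7 myeloid growth factor and receptor genes above the floor 3 were lower and 2 higher, or 1 with bounds. Csf1, the macrophage growth factor that fibroblasts secrete, read 4376 and 265, 16.5-fold lower, the receptor kinase gene Kit 98.0 and 737, 7.52-fold higher, and the receptor gene Csf2ra 784 and 867.

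Lists of other blood cells were small and differed in direction. Over all 9766 genes above the floor 22.6% were lower and 22.1% higher by 2-fold or more. Of 4 granulocyte genes above the floor 2 were higher and none was lower. Of 6 T and NK cell genes 4 were higher, or 3 with bounds, and none was lower. Zap70, a relative of Syk, read 74.7 in the parental sample, below its floor, and 545 in the stem sample, at least 5.81-fold higher. Of 4 B cell genes 2 were higher and 1 lower, of 4 mast cell genes 2 were higher, and of 7 osteoclast genes, of the macrophage lineage, 3 were lower and none was higher. Of 10 complement genes 2 were lower, C1qa and C1qc, and 1 was higher, Clu (515 and 1087). Without C1qa, chosen with this contrast known, 1 of 9 was lower. Of 7 genes of TREM, Siglec, lectin and paired receptors 2 were lower, Trem2 and Sirpa (1713 and 198). Without Trem2, chosen in the same way, 1 of 6 was lower. Of the 6 erythroid and megakaryocyte genes above the floor 4 were higher, or 3 with bounds. Their genes carry the probe error given above, and no difference between lists was tested.

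**Figure D3:**
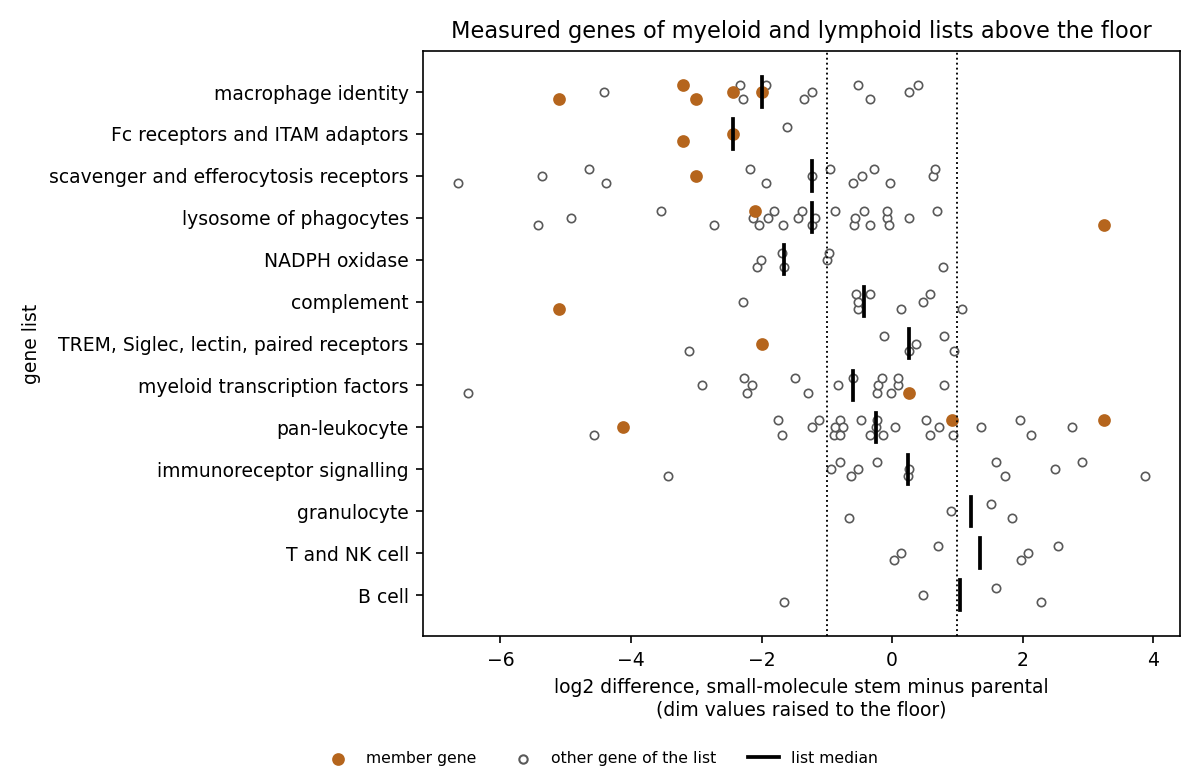
Log2 difference (small-molecule stem minus parental, dim values raised to the floor) of each measured gene above the floor in 13 lists; filled points are the 10 genes described here, open points other genes, bars list medians and dotted lines 2-fold. The macrophage identity list has its median, 5 of the 10 genes included, at -2.00 with no gene past the right line, while the pan-leukocyte list spreads from Lsp1 on the left to Laptm5 at 3.24.

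Relatives of the 10 genes followed them only in part. Beside C1qa, C1qc was lower, as given above. Beside Msr1, the class A scavenger receptor gene Scara5 read 421 and 48.3, at least 4.50-fold lower. Beside Pld4, the signalling phospholipases Pld1 (626 and 220) and Pld2 (602 and 242) were 2.85-fold and 2.49-fold lower, while Pld3, the other endolysosomal exonuclease of the family, was at 3200 and 3027. Beside Laptm5, Laptm4a was 4.12-fold lower (6599 and 1602) and Laptm4b was at 4188 and 6737, so neither measured relative shared its size of change. Trem1 and the plastin gene Pls1 lay under the floor in both samples. In all, 5 of 7 relatives above the floor were lower and none was higher, where 22.6% of all 9766 genes were lower and 22.1% higher. These 5 include Laptm4a, whose relative Laptm5 was higher. Only 9 of 24 listed relatives were measured.

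The promoter windows of the matched genes were compared with those of the whole table. GAGGAA was searched on both strands, and 5 of 7 matched genes held it in a window, against 31.3% of the 27025 genes of the table. A gene with more windows has more places to hold it. By window, 6 of 11 held it, against 28.3% of all 32851, and the 2 Fcgr3 windows share 1 match. The match lay at -40 to -35 from the start in Trem2, at -6 to -1 in Fcgr3 (-15 to -10 from its second start), at -38 to -33 in Laptm5, at 10 to 15 in Pld4 and at -134 to -129 from the third start of Arhgdib. Fcer1g and Lcp1 held none. The longer GAGGAAGT was held by Pld4 alone of the 11 windows and by 3.20% of all 32851 windows. TATAAA was in 2 of the 11 windows, one each of Laptm5 and Arhgdib, and in 13.6% of all. A match is a string of letters and no measured site. Genes with the core near the start were found both among the lower ones (Trem2, Fcgr3 and Pld4) and at the higher one, Laptm5. With 1 higher gene, a relation between the core and direction was not tested.

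In most of these windows CpG content was below the median of all windows, though in none was it below the 25th percentile, 0.176. The observed over expected CpG ratio ran from 0.188 in Pld4 to 0.613 at the first start of Lcp1, and 9 of the 11 windows lay below the median of all windows, 0.384. Both windows above it were alternative starts, of Lcp1 and of Arhgdib (0.539). Trem2 was at 0.221 and Laptm5 at 0.310, so the lower gene and the higher gene were both below the median. As low or lower were 31.8% of all windows for Trem2 and 43.0% for Laptm5. Windows of the same gene share sequence where starts lie close, as the Fcgr3 starts do.

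**Figure D4:**
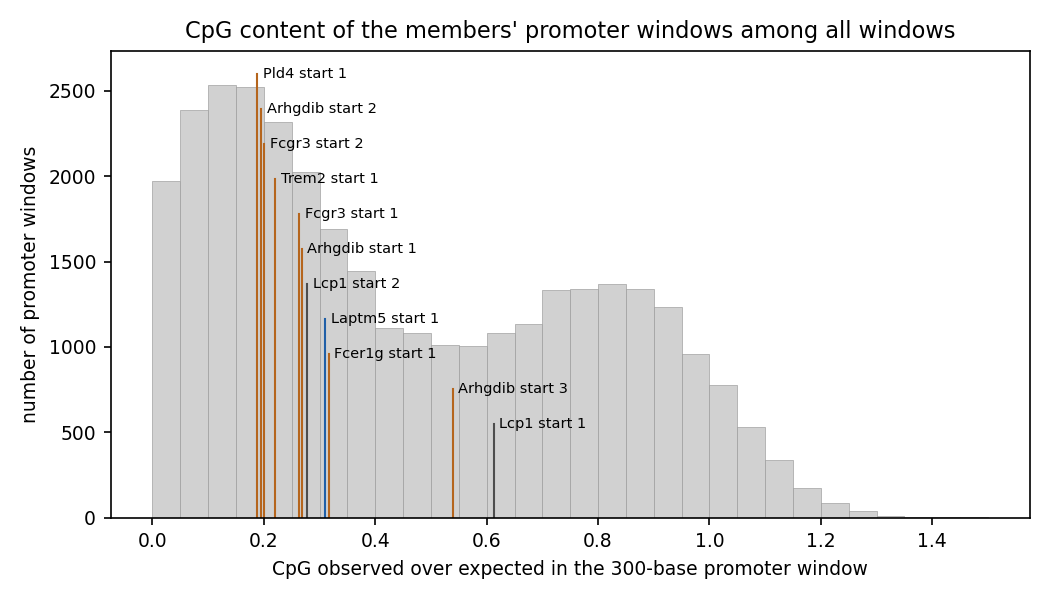
CpG observed over expected in 32851 promoter windows of RefSeq (bars of width 0.05), with lines for the 11 windows of the 7 matched genes (brown for genes lower in the small-molecule stem cells, blue for Laptm5, grey for Lcp1), whose heights only separate the names. Most lines stand in the left mode between 0.188 and 0.317, and only Arhgdib start 3 and Lcp1 start 1 lie above the median of 0.384.

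Marker genes of fibroblasts and of ES cells also differed in the same comparison. All 3 measured fibroblast genes, Thy1, S100a4 and Col6a1, were lower in the small-molecule stem cells, with a summed intensity of 105458 in the parental sample and 655 in the stem sample. Of 9 measured ES cell genes 8 were higher in the sample whose label names stem cells, and their sum was 770 and 124119. The exception was Nanog, at 77.7 and 94.7, and Pou5f1 read 37.8 and 639. The labels name no cell type for the parental sample. The part of these other changes in the differences of the 10 genes was not tested. The 10 genes are not equally specific: Pld4 and C1qa mark few cell types, whereas Lcp1, Laptm5 and Arhgdib are shared by most leukocytes, and on these 2 samples the last 3 spanned both directions.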

How the data were processed

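The authors deposited 1 column of probe values per sample, normalised intensity on a linear scale, for a 1-colour Phalanx Mouse Whole Genome OneArray v2 hybridised with Cy5-labelled amplified RNA, per the labels' protocols. The sources used here do not name the scanner, background correction, normalisation or probe filter. Both columns had nearly equal quantiles (medians 304 and 305), so a difference in total signal would not be visible.

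Of 13989 probes 12380 had a gene symbol, 12364 of them brought up to date through identifiers in a RefSeq table. Intensities were brought to log2 and averaged over the probes of a gene. With 1 sample per group no test was made. Genes were counted at 2-fold, and a value under the 25th percentile of its column gave a bound. The computation was tested on simulated data. The members, the 20 gene lists and the rule for named genes (all 10 members, up to 3 genes each way per list, relatives and partners) were chosen with earlier results of these data known. Some genes are named outside this rule, among them Mrc1, Aif1, Cd68, Ptprc and Irf8. Python 3.11.15, pandas 2.3.3 and statsmodels 0.14.6 were used. The alternatives concerned scaling, probes per gene, offset, floor and size rule. Protein sequences were not used here.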

Additional observations from a re-analysis of the deposited data

How the results depend on the processing

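The counts of 7 lower and 1 higher gene kept their values under all 10 alternatives. With the floor at the median they are counts of 9 genes, because Spi1 (224 and 268) lay under it in both samples. Some of these alternatives could not change them. Each gene had 1 probe, so choosing the brightest probe or counting probes left its value as it was. A lower floor, at the 10th percentile, alters no measured difference, and a floor at the median can only leave genes out. Both columns had nearly equal quantiles, so median centring and quantile normalisation could hardly change the counts. The median log2 difference of -3.10 was smaller with an offset of 50 (-2.38) and with dim values raised to the floor (-2.27), both of which draw dim values together. Of 70 values of single genes under the alternatives, none changed sign, and 5 moved by more than the probe SD of 1.05. These 5 all moved toward 0, for C1qa, Trem2 and Pld4 under those settings. The 70 include values under the brightest probe and the lower floor, which could not move. Lowess centring moved the median of all genes from 0.12 to -0.01. No paired analysis was possible because each group had 1 sample. Intensities near the floor limit what can be said of Fcgr3, Trem2, Pld4 and C1qa in the small-molecule stem cells.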
